A study of Rattus norvegicus with 6 samples.

Results

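Ribosome biogenesis genes encode the factors that transcribe, modify, cut and fold ribosomal RNA and assemble it with ribosomal proteins, together with subunits of RNA polymerase I, the enzyme that transcribes the large ribosomal RNA precursor. The genes described here are a list of 56, of which 48 were measured by a probe set annotated with 1 gene symbol, out of 14506 genes measured in this way. The list was chosen with earlier results of these data known. It is therefore not independent of the values that are set against all probe sets below. For each gene the probe set with the highest mean over the 6 arrays was read. Not measured by such a probe set were Rrn3, Wdr36, Nol11, Utp20, Rrp12, Pes1, Nop2 and Rrp1b. The 6 rat Affymetrix arrays came from the basophilic leukaemia line RBL-2H3, which serves as a mast cell model, and all groups carried stably expressed wild-type Dectin-1, a receptor for beta-glucans. The groups were unstimulated control (2 arrays), curdlan, a particulate beta-glucan that engages the receptor (2 arrays), and R406 plus curdlan (2 arrays), in which cells were pretreated with R406, an inhibitor of the kinase Syk, before curdlan was added. Doses, times, the promoter of the Dectin-1 construct and whether the line is 1 clone were not given in the sources used here. A group given R406 without curdlan was not analysed here, so a block of the curdlan response and an effect of R406 on its own cannot be told apart.

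Ribosome assembly starts in the nucleolus, where RNA polymerase I makes a long precursor. Small nucleolar ribonucleoproteins (snoRNPs) guide its methylation and pseudouridylation, a large complex called the small subunit processome folds and cuts the part that becomes the 40S subunit, and a separate set of factors matures the 60S subunit. Dividing and activated cells make many ribosomes, and growth factor signalling, mTORC1 and the transcription factor MYC are known to raise expression of these genes.

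Values are log2 signals as the authors processed them, and a change is the mean of one group minus that of another, ± its standard error (SE) from limma fitted to all 29214 probe sets. A gene counts as called when its p, adjusted by Benjamini-Hochberg over the whole array, is under 0.05. The array medians lay between 7.204 and 7.241, and arrays of 1 group correlated at 0.9975 to 0.9981. Of 10 mast cell markers, 9 had mean signals at or above the 88.8th percentile of all probe sets, and Tph1, the serotonin synthesis enzyme, lay at the 39.8th, rose with curdlan and fell under R406. Markers of other cells lay between percentiles 17.2 and 80.9 for 8 of macrophages and neutrophils, 9.1 and 41.5 for 5 of lymphocytes, and 4.4 and 70.5 for 8 of fibroblasts and epithelia. Against curdlan alone, Itgam was called among these, at -0.36 ± 0.0661 under R406, and its part in the results was not tested.

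Under R406 plus curdlan, 29 of the 48 ribosome biogenesis genes fell against curdlan alone and 0 rose (limma, Benjamini-Hochberg). Over all probe sets 3.23% were called lower and 4.02% higher, and lower calls made up 6.82% of the 9568 probe sets within the signal range of the 48 genes. The genes that fell covered every step, with Rrs1, a factor that brings 5S ribosomal RNA into the large subunit, at 51.0% of its level with curdlan alone, the RNA polymerase I subunit gene Polr1b at 56.9%, and the small subunit processome gene Wdr43 at 60.0%. The median change of the 48 genes was -0.275 log2 units, against -0.002 over all probe sets, and the single changes ran from -0.97 to 0.02. Both R406 arrays were below both curdlan arrays for 46 of the 48, where 25.6% of all probe sets were arranged in this way. The exceptions were Gnl3l and Npm1.

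With curdlan alone, 0 of the 48 genes passed against unstimulated control, where 1.04% of all probe sets were called higher and 0.551% lower. At an unadjusted p under 0.05, 16 genes were higher and 0 lower by the probe sets read, or 33.3% of the list against 7.16% of all probe sets higher at that level. Both curdlan arrays lay above both control arrays for 36 of the 48 genes, an arrangement seen in 19.2% of all probe sets, and both lay below for 1, Ebna1bp2, where 23.9% of all probe sets did. The median change was 0.078, against -0.011 over all probe sets. The group means were in the order R406 plus curdlan, control, curdlan from low to high for 42 genes. The share of all probe sets in this order was not counted, so the 42 have no background beside them. Since both comparisons use the curdlan arrays, their changes are not independent of each other.

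**Figure D1:**
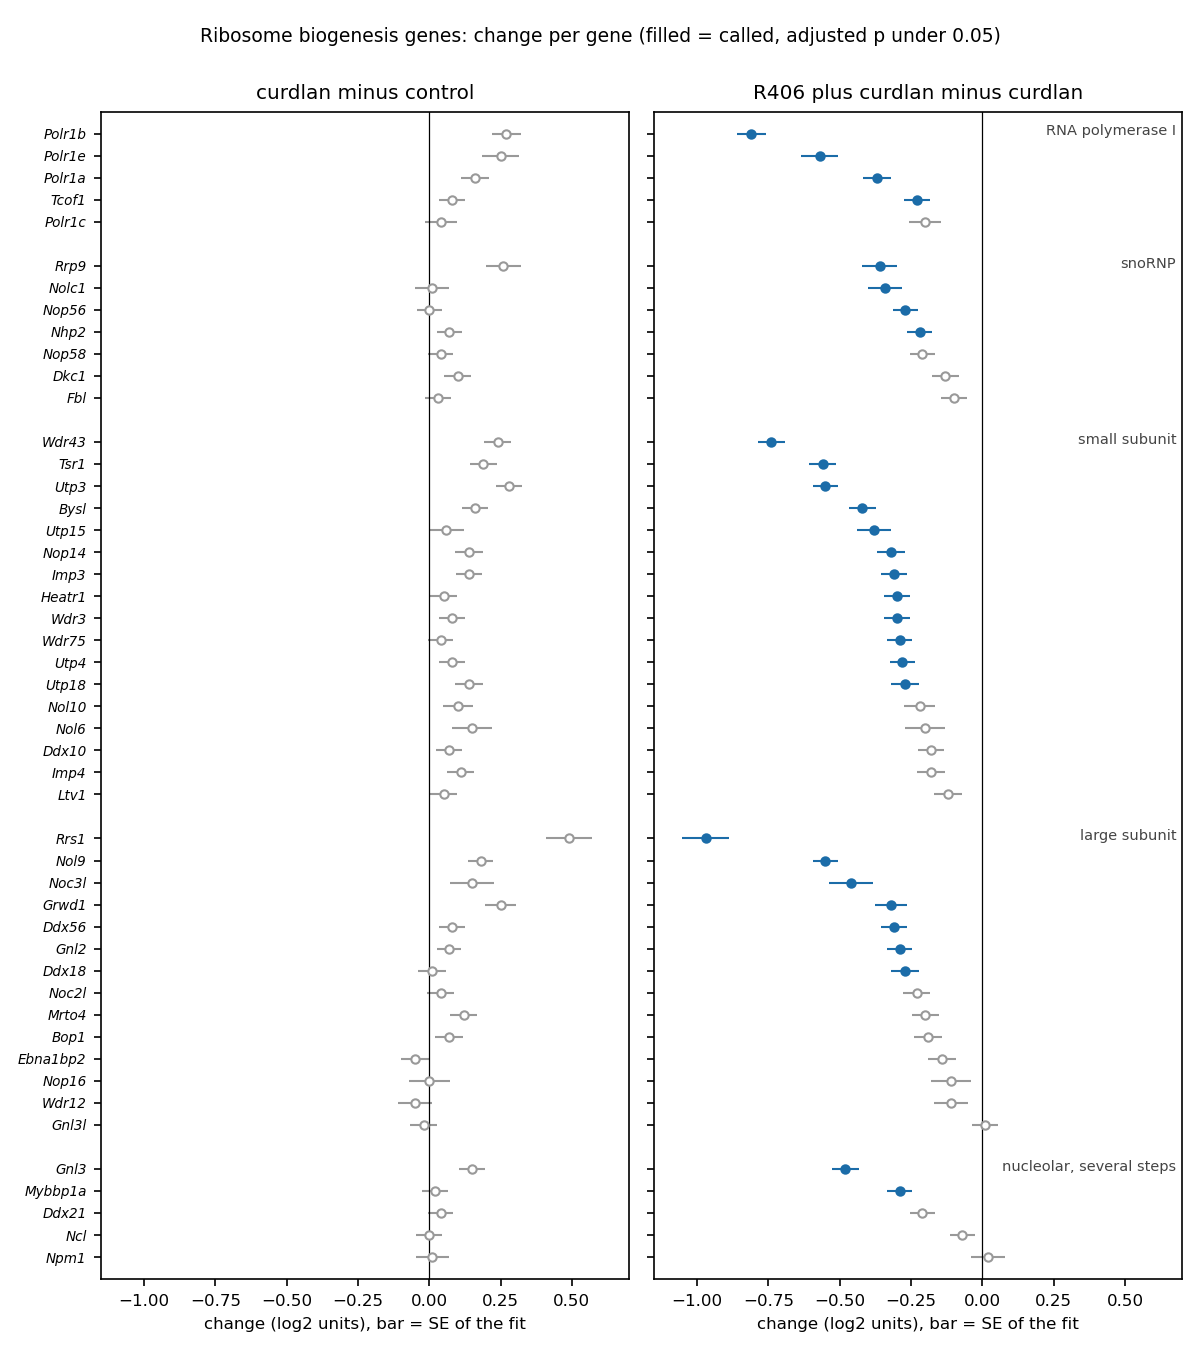
Change of each of the 48 genes in log2 units (x axis) with curdlan against control (left) and with R406 plus curdlan against curdlan alone (right), by role; bars are the SE of the limma fit with 2 arrays per group. Filled points are called at an adjusted p under 0.05: 0 on the left and 29 on the right, all of them below 0.

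The upstream sequences of 4 of these genes are shown as examples, 3 that fell under R406 (Polr1b, Utp3 and Gnl3) and 1 that was not called (Npm1), with a window for each kind of match and for none. Each line gives the 250 bases before the RefSeq gene start on the strand of the gene, in build GRCr8. Capitals mark 3 motifs, searched on both strands: the E-box CACGTG, which MYC and its partner proteins can bind, the ETS core CCGGAAG, and the palindromic NRF1 motif, whose letters are the run of capitals in the Npm1 line.
Polr1b, chr3:136786880-136787129, plus strand: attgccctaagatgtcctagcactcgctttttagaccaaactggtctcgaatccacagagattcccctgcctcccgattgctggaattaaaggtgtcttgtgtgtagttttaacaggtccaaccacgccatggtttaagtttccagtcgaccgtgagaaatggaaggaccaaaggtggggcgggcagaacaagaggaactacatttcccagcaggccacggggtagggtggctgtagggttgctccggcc
Utp3, chr14:19801421-19801670, minus strand: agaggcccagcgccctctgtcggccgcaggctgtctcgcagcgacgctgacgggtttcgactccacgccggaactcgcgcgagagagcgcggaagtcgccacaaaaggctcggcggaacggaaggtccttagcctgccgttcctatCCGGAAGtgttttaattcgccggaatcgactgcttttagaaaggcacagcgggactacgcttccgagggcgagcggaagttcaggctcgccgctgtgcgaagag
Gnl3, chr16:6219783-6220032, minus strand: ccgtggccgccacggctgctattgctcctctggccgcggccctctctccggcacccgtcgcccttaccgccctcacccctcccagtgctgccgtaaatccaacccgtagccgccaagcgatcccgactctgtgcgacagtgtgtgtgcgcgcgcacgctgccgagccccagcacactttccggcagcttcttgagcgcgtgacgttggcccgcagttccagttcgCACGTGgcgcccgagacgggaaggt
Npm1, chr10:18255742-18255991, minus strand: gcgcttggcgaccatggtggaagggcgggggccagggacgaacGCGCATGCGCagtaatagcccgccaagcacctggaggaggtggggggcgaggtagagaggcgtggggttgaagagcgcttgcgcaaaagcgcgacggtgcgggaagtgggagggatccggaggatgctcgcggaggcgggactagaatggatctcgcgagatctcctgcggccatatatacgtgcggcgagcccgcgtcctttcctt
The window of Polr1b held none of the 3 motifs, that of Utp3 an ETS core from position -104, that of Gnl3 an E-box from -25 and that of Npm1 an NRF1 motif from -207, where -1 is the base before the gene start.

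A RefSeq upstream window was matched for 44 of the 48 genes, and Wdr43, Bop1, Gnl2 and Rrs1 had none. The E-box was in 8 of the 44 windows (18.2%), against 6.18% of all 27457 genes with a window and 9.28% of the 5239 genes with a window whose signals lay in the range of the 48. It was in 6 of the 26 windows of genes that fell under R406, namely Ddx18, Gnl3, Mybbp1a, Utp18, Utp4 and Wdr75, and in 2 of the 18 windows of genes that were not called, Dkc1 and Ltv1. The ETS core was in 21 of 44 windows (47.7%), against 8.11% of all genes and 20.5% of genes in the same signal range. It was in 10 of 26 windows of genes that fell and in 11 of 18 of those not called. The NRF1 motif was in 1 window (2.27%), that of Npm1, against 0.87% of all genes and 2.21% of those in the same signal range. No match overlapped one of another motif. The median GC content of the 44 windows was 58.4%, against 51.2% over all windows. These are letter matches, no test was made on them, and a window without a match says nothing about binding elsewhere.

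RNA polymerase I genes were the role group with the lowest median change under R406, at -0.374 log2 units, and 4 of the 5 measured fell. Polr1b, the second largest subunit of the enzyme, had signals of 11.41 and 11.33 in the control arrays, 11.62 and 11.66 with curdlan, and 10.82 and 10.83 under R406 plus curdlan. The 3 groups did not overlap, and the change under R406 was -0.81 ± 0.0512 (limma adjusted p = 0.00288). Polr1e, a subunit that helps the enzyme start and elongate, read 11.93 and 11.80, 12.13 and 12.10, and 11.59 and 11.50 in the same order. Its arrays were also apart in all 3 groups, with a change of -0.57 ± 0.0649 (adjusted p = 0.0122). Polr1a, the largest and catalytic subunit, was at 10.44 and 10.37, 10.55 and 10.58, and 10.19 in both R406 arrays. It fell by 0.37 ± 0.049 on the log2 scale (adjusted p = 0.0175).

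Tcof1, which encodes the nucleolar protein treacle that holds the polymerase at ribosomal DNA, fell by 0.23 ± 0.0455 with an adjusted p of 0.0497, close to the threshold. Polr1c, a subunit that RNA polymerases I and III share, had a change of -0.20 ± 0.0567 and was not called (adjusted p = 0.117). With curdlan alone, the changes of these 5 genes lay between 0.04 for Polr1c and 0.27 for Polr1b, and none was called.

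Among the genes of snoRNPs and their assembly, 4 of 7 fell under R406, with a median change of -0.224. Rrp9, a protein of the U3 snoRNP that is needed for the first cuts of the precursor, read 10.69 and 10.81 in control, 11.02 and 11.00 with curdlan, and 10.61 and 10.68 under R406. The R406 arrays were below those of both other groups, and the change against curdlan was -0.36 ± 0.0605 (adjusted p = 0.0328). Nolc1, a chaperone of snoRNPs, fell by 0.34 ± 0.0599, the box C/D core gene Nop56 fell by 0.27 ± 0.043, and the box H/ACA core gene Nhp2 fell by 0.22 ± 0.044, with adjusted p between 0.0302 and 0.0488 for these 3.

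The 3 snoRNP genes that did not pass included the enzymes of both classes. Fbl encodes fibrillarin, the methyltransferase of box C/D snoRNPs, and its signals were 12.48 in both control arrays, 12.52 and 12.48 with curdlan, and 12.42 and 12.40 under R406. Its change of -0.10 had a 95% interval of the fit from -0.21 to 0.02. Dkc1, the pseudouridine synthase of box H/ACA snoRNPs, had a change of -0.13 ± 0.047 (adjusted p = 0.201), and Nop58, the partner of Nop56, one of -0.21 ± 0.0446 (adjusted p = 0.0633). Nop56 therefore passed while its box C/D partners did not, but the difference between them was not tested.

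Genes of the small subunit made up the largest role group, and 12 of 17 fell under R406 with a median change of -0.300. Wdr43, a subunit of the processome part that binds the start of the precursor, was at 11.08 and 11.04 in control, 11.28 and 11.33 with curdlan, and 10.57 and 10.56 under R406. The groups did not overlap, and the change under R406 was -0.74 ± 0.0478 (adjusted p = 0.0031). Tsr1, a GTPase-like factor that rides on the late 40S precursor, read 11.05 in both control arrays, 11.23 and 11.25, and 10.64 and 10.71, a change of -0.56 ± 0.0479 (adjusted p = 0.00614). Utp3, another processome protein, was lower in signal, at 9.69 and 9.72, 9.97 and 9.99, and 9.45 and 9.41. It fell by 0.55 ± 0.0449 (adjusted p = 0.00553), and its control arrays lay between those of the other groups.

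Bysl, which is needed for maturation of the small subunit precursor, fell by 0.42 ± 0.0459 (adjusted p = 0.0111). Utp15, Utp4 and Heatr1 belong with Wdr43 to the early-binding subcomplex of the processome, and they fell by 0.38 ± 0.06, 0.28 ± 0.0446 and 0.30 ± 0.0458. Wdr75, of the same subcomplex, fell by 0.29 ± 0.0438, so its 5 measured genes on the list were all called, though the arrays of Utp15 overlapped between control and curdlan. Wdr3 and Utp18, of the subcomplex UtpB, fell by 0.30 ± 0.0459 and 0.27 ± 0.049. Nop14 fell by 0.32 ± 0.0494 and Imp3, which joins U3 RNA to the precursor, fell by 0.31 ± 0.0461. Imp4, the partner of Imp3, was not called at -0.18 ± 0.0475, and neither were the RNA helicase gene Ddx10 at -0.18, Nol6 at -0.20, Nol10 at -0.22 and Ltv1 at -0.12, with adjusted p between 0.0831 and 0.225. For each of the 17 small subunit genes, called or not, both R406 arrays were below both curdlan arrays.

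**Figure D2:**
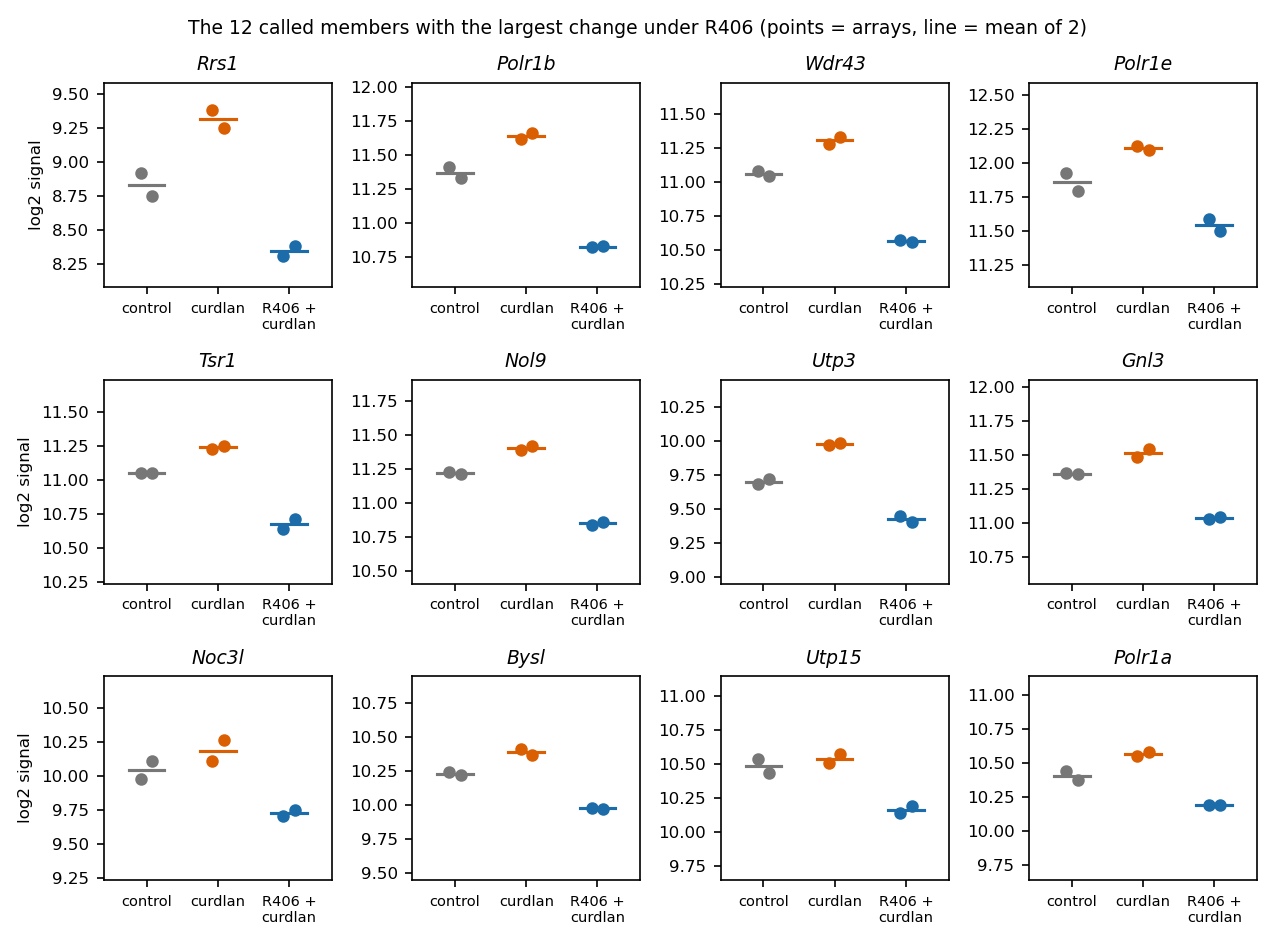
Log2 signal (y axis) in each array of the 12 called genes with the largest change under R406; points are arrays and lines the mean of the 2 arrays of a group, and every panel spans the same number of log2 units. In each panel both R406 plus curdlan arrays are below the 4 others, while control and curdlan overlap for Utp15 and come together at 10.11 for Noc3l.

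Large subunit genes were split, with 7 of 14 lower under R406 and a median change of -0.250. Rrs1 had the lowest signals of the 48 genes, at 8.92 and 8.75 in control, 9.38 and 9.25 with curdlan, and 8.31 and 8.38 under R406. The groups were apart, and its change of -0.97 ± 0.0813 under R406 was the largest of the list (adjusted p = 0.00594). Nol9, a kinase that acts on the spacer between the large subunit RNAs, read 11.23 and 11.21, 11.39 and 11.42, and 10.84 and 10.86. It fell by 0.55 ± 0.0441 (adjusted p = 0.00537).

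Noc3l fell by 0.46 ± 0.0781, the histone and ribosomal protein chaperone gene Grwd1 by 0.32 ± 0.055, the helicase genes Ddx56 and Ddx18 by 0.31 ± 0.0454 and 0.27 ± 0.0498, and the GTPase gene Gnl2 by 0.29 ± 0.0425. The measured genes of the PeBoW complex, which is needed for large subunit maturation, were not called: Bop1 had a change of -0.19 ± 0.0494 (adjusted p = 0.0957) and Wdr12 one of -0.11 ± 0.0598 (adjusted p = 0.386). Also not called were Noc2l at -0.23, Mrto4 at -0.20, Ebna1bp2 at -0.14 and Nop16 at -0.11. Gnl3l, a nucleolar GTPase related to Gnl3, read 11.97 and 12.01, 11.95 and 11.99, and 11.98 and 11.99. Its groups overlapped, and its change under R406 was 0.01 with a 95% interval from -0.10 to 0.13.

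Of the nucleolar proteins that act at several steps, 2 of 5 fell under R406. Gnl3, which encodes the GTPase nucleostemin, read 11.37 and 11.36 in control, 11.49 and 11.55 with curdlan, and 11.03 and 11.05 under R406, and fell by 0.48 ± 0.0466 (adjusted p = 0.00826). Mybbp1a, a nucleolar regulator of transcription, fell by 0.29 ± 0.0449. Ddx21, a helicase that links RNA polymerase I transcription and snoRNAs, had a change of -0.21 ± 0.0439 and was not called (adjusted p = 0.0569).

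The genes of nucleolin and nucleophosmin, the most abundant nucleolar proteins, were not called in any comparison. Ncl, the gene of nucleolin, was at 13.24 and 13.23 in control, 13.24 in both curdlan arrays, and 13.15 and 13.19 under R406, a change of -0.07 with a 95% interval from -0.18 to 0.05. Npm1, the gene of the histone and ribosome chaperone nucleophosmin, read 12.96 and 12.85, 12.89 and 12.95, and 12.93 and 12.95, with overlapping groups and a change of 0.02 (interval -0.12 to 0.17). Npm1 has near-identical copies in the genome that can share probes, so its signal is uncertain. The spread of changes over all probe sets was narrower at high signals: under R406 the 5th and 95th percentiles were -0.07 and 0.07 between 13 and 15 log2 units, where Ncl lies, -0.18 and 0.16 between 12 and 13, where Npm1 lies, and -0.36 and 0.33 between 10 and 12. Across the 48 genes, the change under R406 had a Pearson correlation of 0.44 with the mean signal (Spearman 0.35), as a description over genes that share the 6 arrays. The part of signal compression in this was not tested.

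**Figure D3:**
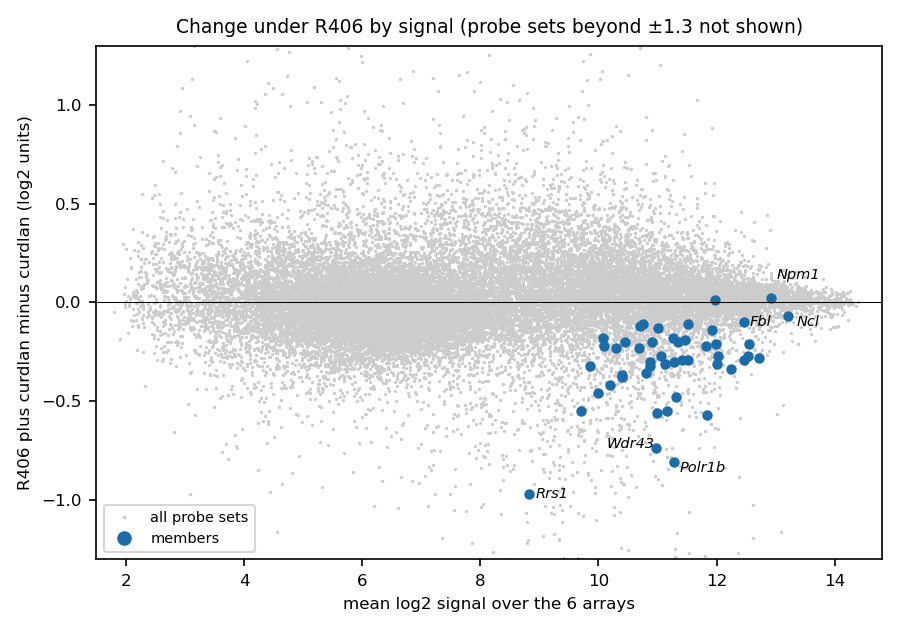
Change under R406 plus curdlan against curdlan alone (y axis, log2 units) by mean log2 signal (x axis) for all probe sets in grey and the 48 genes in blue. Of the 48, 46 lie below 0, with Rrs1 at -0.97 among the dimmest and Npm1 at 0.02 among the brightest.

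The 16 genes with an unadjusted p under 0.05 for curdlan against control came from all role groups: 3 of 5 RNA polymerase I genes, 1 of 7 of snoRNPs, 7 of 17 of the small subunit, 4 of 14 of the large subunit and 1 of 5 nucleolar ones. Rrs1 had the largest change, 0.49 ± 0.0813, with an adjusted p of 0.0699. Utp3 followed at 0.28 ± 0.0449 (adjusted p = 0.0642), Polr1b at 0.27 ± 0.0512 and Rrp9 at 0.26 ± 0.0605. None of these changes passed the adjusted threshold.

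Against unstimulated control, 5 of the 48 genes were lower under R406 plus curdlan and 0 higher, where 0.791% of all probe sets were called lower and 1.44% higher. They were Polr1b at -0.55 ± 0.0512, Wdr43 at -0.49 ± 0.0478, Tsr1 at -0.37 ± 0.0479, Nol9 at -0.37 ± 0.0441 and Gnl3 at -0.33 ± 0.0466, with adjusted p between 0.018 for Polr1b and 0.0418 for Gnl3. Both R406 arrays were below both control arrays for 45 of the 48 genes, against 27.8% of all probe sets, with Dkc1, Gnl3l and Npm1 as the exceptions. The median change was -0.180, against -0.010 over all probe sets. Rrs1 was at -0.49 ± 0.0813 (adjusted p = 0.0577) and Polr1e at -0.32 ± 0.0649 (adjusted p = 0.0837). Rrp9 and Grwd1, which were called lower against curdlan alone, had changes of -0.10 and -0.06 against control and were not called.

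**Figure D4:**
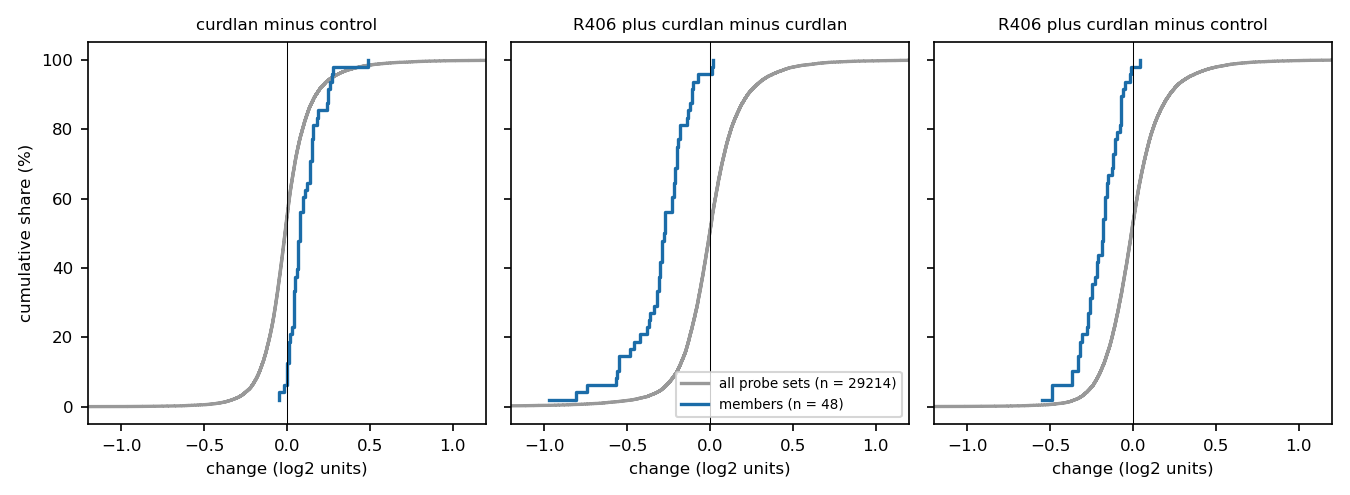
Cumulative share of probe sets (y axis, percent) by change in log2 units (x axis) for the 48 genes (blue) and all 29214 probe sets (grey) in the 3 comparisons. The blue line is to the right of the grey one with curdlan for most of its length (medians 0.078 and -0.011) and to the left in both R406 comparisons (medians -0.275 and -0.180).

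Further genes of the pathway were read from lists outside the 56. Of 70 other ribosome biogenesis factors 25 (35.7%) fell under R406 against curdlan alone and 0 rose, with a median of -0.204. Over all probe sets 3.23% were called lower. Ppan, a large subunit factor, fell by 0.78 ± 0.0626, Naf1, an assembly factor of box H/ACA snoRNPs, fell by 0.65 ± 0.05 and Nip7 fell by 0.62 ± 0.0787. With curdlan, 1 of the 70 rose, Rrp7a, a small subunit processome gene, at 0.43 ± 0.053 (adjusted p = 0.0385), and it fell under R406 by 0.56 ± 0.053. Against control, 4 of the 70 (5.71%) were lower under R406, where 0.791% of all probe sets were called lower. Among them were Ppan at -0.51 ± 0.0626, Naf1 at -0.40 ± 0.05 and Gtpbp4 at -0.31 ± 0.0453. Of 11 other RNA polymerase I factors 5 (45.5%) fell under R406 against curdlan and 0 rose. These were the polymerase subunit genes Polr1g at -0.86 ± 0.104 and Polr1f at -0.50 ± 0.0535, and Taf1c, Taf1a and Taf1d of the promoter selectivity factor SL1 at -0.55 ± 0.0558, -0.54 ± 0.07 and -0.43 ± 0.0759. Polr1f and Taf1d, and Gtf3c5 in the next list, are named outside the rule, after their values were seen.

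Genes of RNA polymerase III, which makes 5S ribosomal RNA and transfer RNAs, had calls in both directions. Of 18 genes 4 fell, including the subunit genes Polr3f at -0.53 ± 0.0495 and Polr3e at -0.48 ± 0.0554, and 2 rose, Maf1 at 0.46 ± 0.043 and Gtf3c5 at 0.24 ± 0.0436. Maf1 encodes a repressor of RNA polymerase III. It read 10.80 in both control arrays, 10.76 and 10.75 with curdlan, and 11.23 and 11.21 under R406, above all other arrays. Against control, Maf1 was again called higher, at 0.42 ± 0.043, and Polr3e lower, at -0.52 ± 0.0554. Each was the 1 call of the 18 genes in its direction, where 1.44% of all probe sets were called higher and 0.791% lower. Of 10 measured genes of the RNA exosome, which trims precursor ends, 1 fell, the nuclease gene Dis3 at -0.37 ± 0.0599.

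Of the 68 ribosomal protein genes, 0 were called under R406, 0 had an unadjusted p under 0.05, and their changes lay between -0.12 and 0.07 with a median of 0.007. Their median signal was 13.20, in the range of the narrowest spread over all probe sets, and many have near-identical copies, so single values are uncertain. With curdlan the ribosomal protein changes lay between -0.09 and 0.12, again with 0 calls and 0 at an unadjusted p under 0.05.

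**Figure D5:**
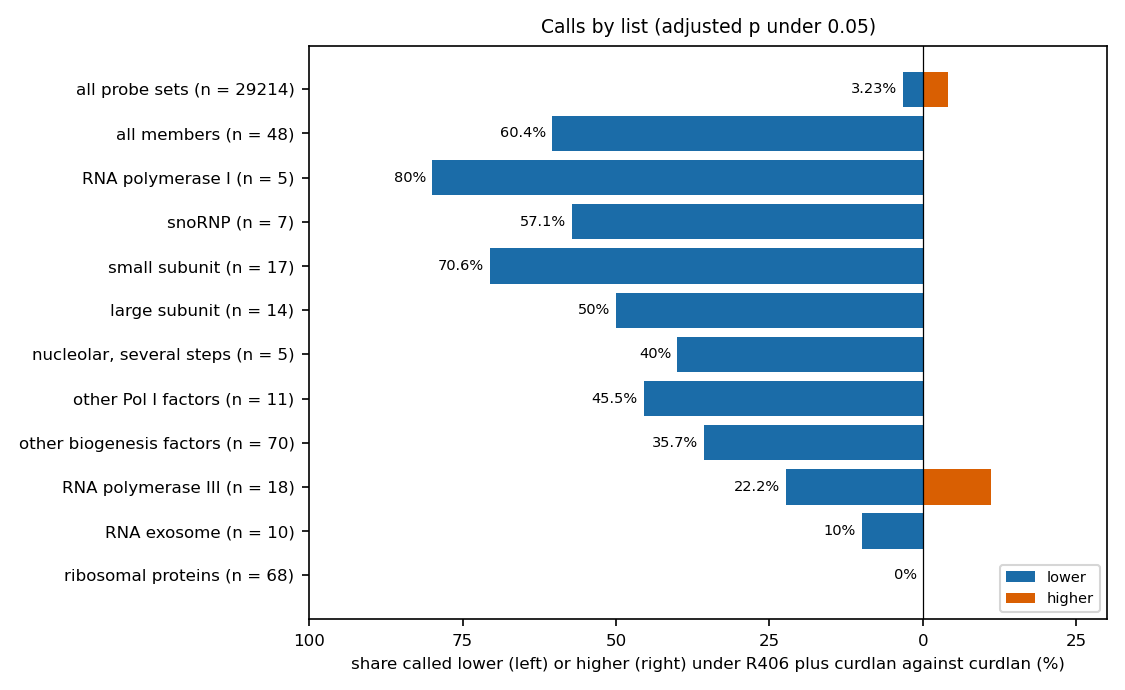
Share of genes called lower (bars to the left) or higher (to the right) under R406 plus curdlan against curdlan alone, in percent, for all probe sets, the 48 genes, their 5 role groups and 5 further lists. The share called lower is 60.4% for the 48 genes and 3.23% for all probe sets, with 0 calls among the ribosomal proteins.

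Myc was read as well, as a gene known to act on this pathway and picked after its values had been seen. Its signals were 11.65 and 11.51 in control, 12.14 and 12.13 with curdlan, and 8.29 and 8.12 under R406. It fell by 3.93 ± 0.0807 under R406 (adjusted p = 0.000112), and its change of 0.55 with curdlan had an adjusted p of 0.0537. Its order of groups was that of 42 of the 48 ribosome biogenesis genes, though the share of all probe sets in this order was not counted. The part of Myc in their changes was not tested.

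The number of calls rested on the small number of arrays. The 29 calls under R406 became 12 with either control array left out, 7 or 6 with the first or the second curdlan array left out, and 2 with either R406 plus curdlan array left out, in fits with 2 residual degrees of freedom. Polr1b and Wdr43 were called in all 6 of these fits, Nol9, Rrs1, Tsr1 and Utp3 in 4, Gnl3 in 3, and 17 of the 29 in none, while all 29 kept their direction in each. The 5 calls against control became 0 without any 1 array. The kept direction adds no support, since the 2 groups compared did not overlap for any called gene. Leaving out 1 array could therefore not reverse the sign. With curdlan, 8 genes rose when only the brighter 14607 probe sets were tested, where 6.06% of probe sets were called higher. A prior variance that follows the signal gave 11, with 3.14% of all probe sets higher. Polr1b, Rrp9, Wdr43, Utp3, Tsr1, Nol9, Rrs1 and Grwd1 were called in both. Whether the arrays of a pair were separate cultures is not stated in the labels, so the p-values cover only the spread between arrays, which may be technical.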

How the data were processed

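The authors deposited log2 signals for each probe set on each array. The submitters' processing notes name Affymetrix Expression Console. The version, summarisation, normalization and build were not given in the sources used here, and the log base was taken from the range of the values (highest signals 14.37 to 14.41). Depth does not apply to arrays; their number limits the precision. The table held 0 columns of other samples.

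Probe sets were named from the platform annotation: 15310 of 29214 had 1 gene symbol, 323 several and 13581 none. Genes were grouped by role, and the members and lists were chosen with earlier results of these data known. All 6 arrays entered 1 model of 3 groups with lmFit and eBayes of limma 3.58.1 in R 4.3.3, 2-sided and with no filter, with 3 residual and 2.16 prior degrees of freedom. The 95% intervals are unadjusted. The fit was run on data simulated with the spread fitted here, as a check of the code that adds no support to the results. Alternatives were quantile normalization, median centring, the 4 arrays compared, brighter probe sets, a prior variance trend, the mean of probe sets, the replicate block, stricter thresholds and each array left out. For each comparison, the rule for named genes took the 12 called members with the largest change whose arrays did not overlap, the top 2 called of each role group, up to 3 called genes of each further list, the member with the smallest change among those not called in each role group, and a fixed set of central genes; members outside it are named to account for the whole list. Deviations of same-numbered arrays correlated only weakly across groups, which cannot exclude a pairing, and no block was used in the main model. Upstream windows came from RefSeq (GRCr8).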

Additional observations from a re-analysis of the deposited data

How the results depend on the processing

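The median changes held under both normalizations and with the mean over probe sets. With each array left out they ran from 0.070 to 0.090 for curdlan and -0.283 to -0.269 for R406 against curdlan. For R406 against control they ran from -0.206 to -0.179. An array outside the 2 groups compared could not move them. The 4 arrays compared, the brighter probe sets, the prior variance trend and the replicate block leave each change as it was. These fits are therefore no check of the medians. No called result changed direction, which was fixed in advance in those fits. In the fits without 1 array it was fixed by arrays that did not overlap. Counts of calls moved more, and the cause was not tested except where the alternative itself has fewer arrays or a stricter threshold. The 0 genes called higher with curdlan became 8 among probe sets above the median signal, 11 with a prior variance that follows the signal and 4 with the mean of all probe sets of a gene, fitted over genes. The 29 called lower under R406 against curdlan became 12 in the fit of the 4 arrays compared, 7 at an adjusted p under 0.01, 0 at a 2-fold threshold, and 2 to 12 with each array left out, but 38 with only the brighter probe sets tested (10.2% lower), 40 with the prior variance that follows the signal (5.2% of all probe sets lower) and 36 with the mean of all probe sets. Beside the 29, Polr1c, Nop58, Nol10, Imp4, Ddx10, Bop1, Noc2l, Mrto4 and Ddx21 were called in the first 2 of these. Fbl and Ebna1bp2 were called in the second of them and not in the first. The 5 called lower against control became 8 after quantile normalization, 30 among probe sets above the median signal (5.84% lower), 29 with the prior variance that follows the signal (2.96% lower), 18 with the mean of all probe sets, and 0 in the fit of 4 arrays, at 0.01, at 2-fold and in each fit without 1 array. Pairing by replicate number was not assumed. The deviations of replicate 1 from its group mean correlated at -0.115 between control and curdlan and -0.00454 between control and R406 plus curdlan. Between curdlan and R406 plus curdlan they correlated at 0.113. With 2 arrays per group, weak correlations cannot exclude a pairing. With the replicate block, which uses up 1 degree of freedom, 10 genes were lower against curdlan and 0 against control. The mean of probe sets was fitted and adjusted over 14506 genes rather than 29214 probe sets, and only 5 of the 48 genes have several probe sets. The share of all features called is not given here for that fit, quantile normalization, the 4 arrays compared or the replicate block. Their counts therefore have no background beside them and are not read as results about the 48 genes.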

Other observations

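Of the 48 genes, 5 had several probe sets with 1 symbol. The second probe set of Ddx21 gave nearly the same change under R406 as the first, -0.21 ± 0.0435 (adjusted p = 0.0559), and the 3 further probe sets of Npm1 gave -0.06, 0.02 and 0.03. Gnl3 had a second probe set near the bottom of the array, at the 8.9th percentile of signal, where the change was -0.26 ± 0.0608 (adjusted p = 0.0763) against -0.48 for the brighter one. The second probe sets of Nop16 and Ebna1bp2 had changes of -0.22 and -0.10 and were not called either. With curdlan against control, the second probe set of Ebna1bp2 was lower, at -0.16 ± 0.0613 (limma unadjusted p = 0.0468). That of Gnl3 was higher, at 0.24 ± 0.0608 (unadjusted p = 0.0103). Neither was called.

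Sorted by mean signal into 3 sets of 16 genes, the dimmest had 10 genes called lower under R406 against curdlan with a median change of -0.309, the middle set 10 with -0.296 and the brightest 9 with -0.245. With curdlan against control the medians were 0.124, 0.116 and 0.021 in the same order, with 0 calls in each. The correlation of the curdlan change with mean signal across the 48 genes was -0.6 (Spearman -0.55), given as a description.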
